A study of Mus musculus with 8 samples.

Results

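The genes described here are 41 enzymes and enzyme regulators of glycolysis, pyruvate entry into mitochondria, the tricarboxylic acid (TCA) cycle and glutamine metabolism in mouse pancreatic islets. They were chosen by gene symbol from knowledge of these pathways and not by a rule on their measured values. Earlier results of these data were known when the list was made. Each was read from its brightest probe, the one with the highest mean over all arrays, among probes assigned to that gene through a RefSeq accession, and all 41 were found among the 22911 genes named in this way.

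Total RNA was measured on one-colour Agilent arrays in islets of floxed mice (control, n = 4 arrays) and of βFbln5KO mice (n = 4 arrays), with 150 islets per extraction from male mice aged 11 weeks. Both groups carry floxed alleles of Fbln5, the gene of the matricellular protein fibulin-5. In βFbln5KO mice, Cre under the Ins1 promoter deletes the gene in β-cells, so that the other islet cells keep it. Whether control animals carried Cre is not stated in the labels. The comparison asked which transcripts differ in islets when β-cells lack fibulin-5.

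In β-cells, glucose is phosphorylated and broken down by glycolysis to pyruvate, most of which enters mitochondria because lactate dehydrogenase is scarce in these cells. Pyruvate then follows either pyruvate dehydrogenase, toward oxidation, or pyruvate carboxylase, toward refilling of the TCA cycle, and the ATP made closes potassium channels and triggers insulin release. Glutamine enters as glutamate, which glutamate dehydrogenase or the aminotransferases convert to the cycle intermediate 2-oxoglutarate.

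Values are log2 of the processed spot signal minus log2 of the 75th percentile of the same array, so that 0 is the signal of a spot at that percentile and a difference of 1 is a 2-fold difference. A gene was called at an unadjusted limma p under 0.05, and Benjamini-Hochberg adjustment ran over all 56605 probes. Signals of different probes were not compared with each other. The percentile itself lay between 709 and 1012 signal units in control arrays and between 910 and 1055 in βFbln5KO arrays, and 33592 to 34889 spots against 31214 to 33549 spots were well above background. The β-cell markers were well above background on every array, 8 of 8, with 0 of 8 called. Of 9 acinar (exocrine) markers, 0 were called and 8 exceeded background throughout, with a median log2 fold change of -0.91, and their summed linear signal, relative to the 75th percentile, was 1039 to 2793 in control arrays and 620 to 1822 in βFbln5KO arrays. The part of this exocrine RNA in the values below was not tested.

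Fbln5 itself was at -1.70, -1.32, -2.05 and -1.83 in control arrays 1 to 4 and at -2.74, -2.40, -2.38 and -1.37 in βFbln5KO arrays 1 to 4. In βFbln5KO islets, 3 arrays lay below all control arrays, and βFbln5KO array 4 lay among them. The log2 fold change was -0.50 ± 0.29 (SE, limma adjusted p = 0.342), and without βFbln5KO array 4 it was -0.78 and was called (unadjusted p = 0.00427, limma fit across all probes). Over the other single arrays left out it ran from -0.61 to -0.33 and was not called. The position of this probe relative to the deleted exons is not given in the files, so the value is a limited check of the labels.

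Among the 41 metabolic genes, 0 were called higher and 0 lower in βFbln5KO islets, and 0 passed after adjustment (smallest limma adjusted p = 0.228, and 0.0598 without βFbln5KO array 4). The methods’ t-test, run on the same values, also called 0 of the 41. All 41 were well above background on all 8 arrays, as were 13650 genes in all, of which 1.01% were called higher and 3.08% lower. Over all probes, dim ones included, 20.7% were called higher and 3.97% lower, and 0.0106% passed after adjustment (5 probes higher and 1 lower). Without βFbln5KO array 4, 11206 probes passed after adjustment as higher and 338 as lower, and with a variance model without trend 6184 and 394, but 0 of the 41 genes passed in either. The log2 fold changes of the 41 genes ran from -0.17 to 0.27 with a median of 0.02, against a median of -0.01 for the 13650 genes. The fold change was positive for 31 genes and negative for 10 (24 to 37 positive under other settings), against 6339 positive and 7311 negative among the 13650 genes. On the brightest probe of no gene did the arrays of one genotype all lie above those of the other, which happened in 0.681% of the 13650 genes for βFbln5KO above control and in 2.04% for βFbln5KO below control.

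The intervals bound what these arrays leave room for. The 95% limma interval of the difference lay inside a 2-fold change in either direction for 41 of 41 genes, inside 1.5-fold for 38 and inside 1.25-fold for 35. Among the 13650 genes, the same shares were 95.8%, 85.4% and 59.4%. The genes with intervals reaching past 1.5-fold were Pdk3, Pdk4 and Me3, and those reaching past 1.25-fold also included Pkm, Idh1 and Fh1. A p above the threshold does not show equality, and these intervals are for single genes, without adjustment for their number. In islets, which hold several cell types, fewer cells of a type and less RNA per cell cannot be told apart, and p-values measure the spread between extractions. Whether an extraction held the islets of 1 mouse or of several pooled mice is not stated in the labels. By the array positions in the scanner file headers, each genotype filled its own row of the slide, so row and genotype cannot be told apart, and the number of arrays limits the precision.

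**Figure D1:**
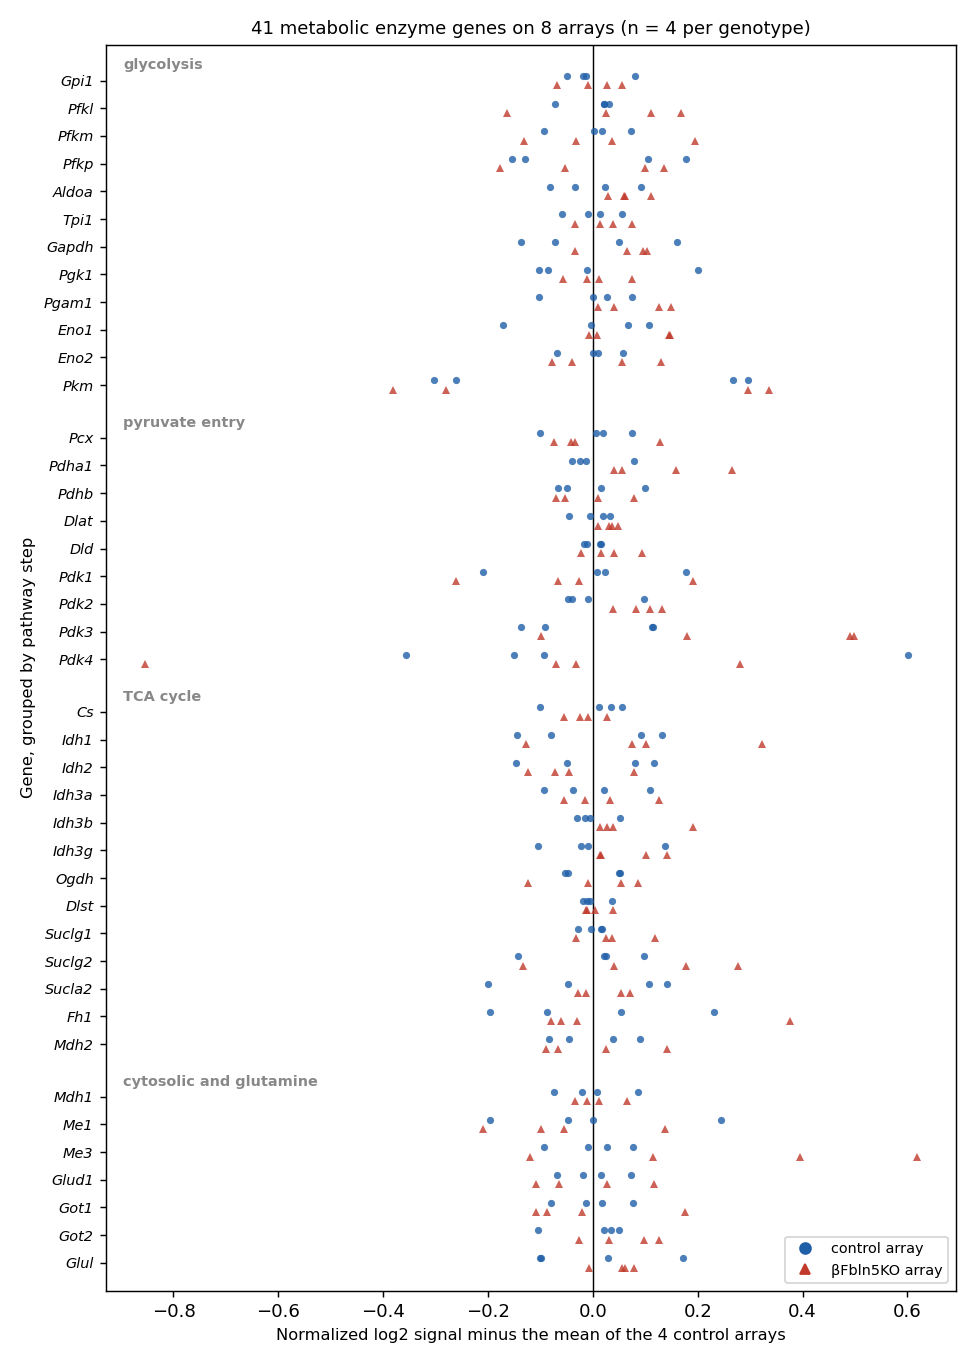
Normalized log2 signal of each of the 41 genes on each array, drawn as the difference from the mean of the 4 control arrays (blue circles for control, red triangles for βFbln5KO, genes grouped by pathway step). The symbols of the genotypes overlap in every gene, and Pkm, Pdk3, Pdk4 and Me3 are spread most widely.

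**Figure D2:**
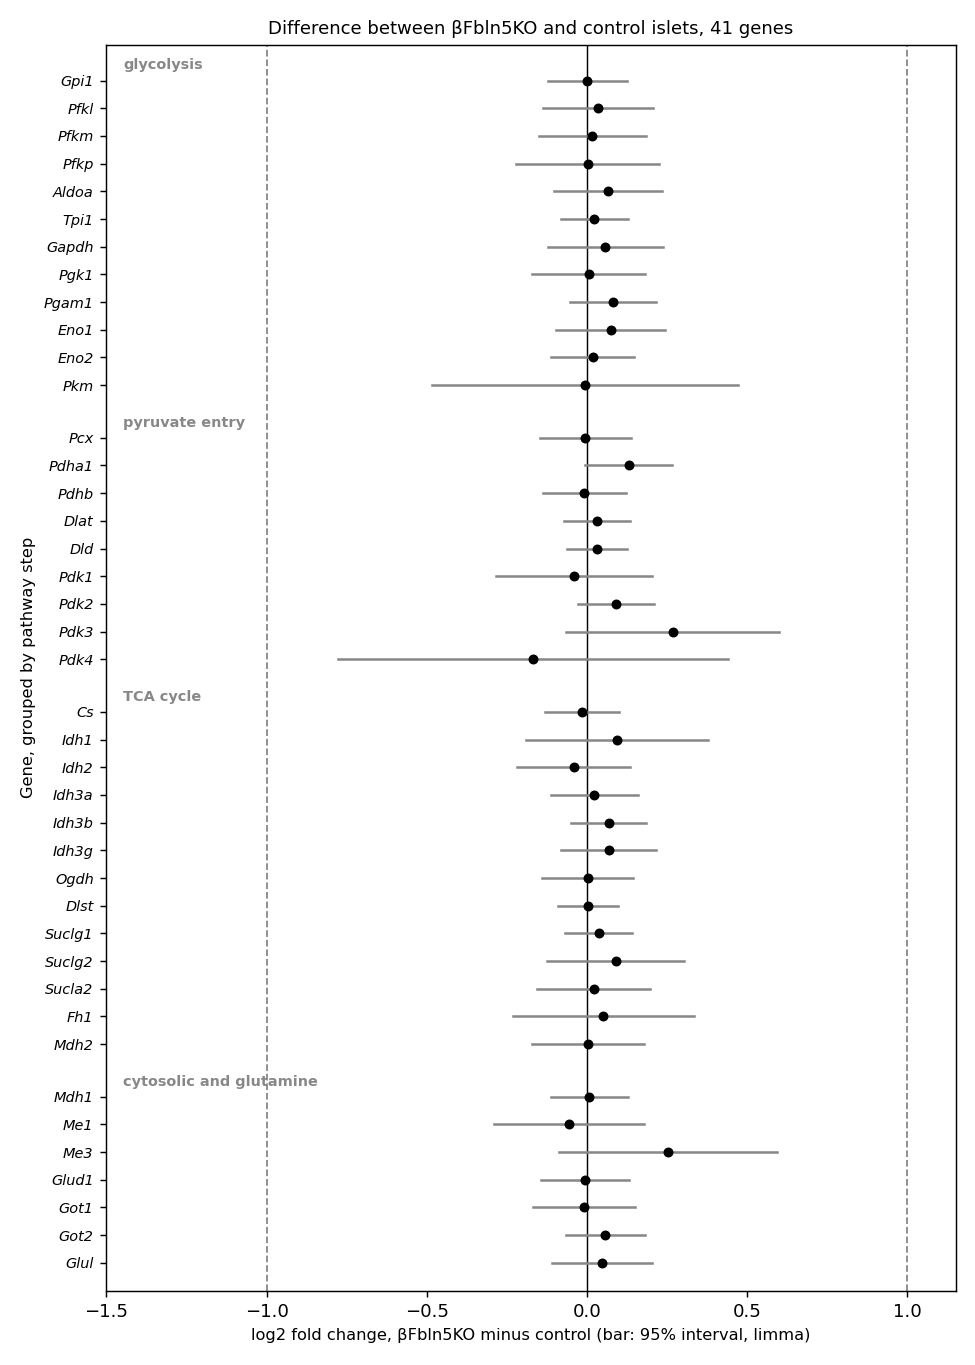
Log2 fold change, βFbln5KO minus control, of each gene (black point) with its 95% limma interval (grey bar), where dashed lines mark a 2-fold difference in either direction. Every interval includes 0 and lies between the dashed lines.

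The promoters of the 3 genes with the smallest limma p are printed, chosen by that rank alone, and none of the 3 was called. Pdha1 encodes the catalytic E1 alpha subunit of pyruvate dehydrogenase, and Pdk3 and Pdk2 encode kinases that inhibit that subunit by phosphorylation. Each sequence covers 250 bases before and 50 after a transcription start in RefSeq (build GRCm38.p6), 5′ to 3′ on the gene's strand. Capitals mark ACGTG, the core of the hypoxia response element, which is also contained in the E-box CACGTG (here marked in full where its overlapping strands both match), and GGGCGG, the GC box, on either strand. The windows lie at chrX:160138381-160138680 for Pdha1, chrX:93832101-93832400 for Pdk3 and chr11:95041322-95041621 for Pdk2, all on the minus strand.
Pdha1: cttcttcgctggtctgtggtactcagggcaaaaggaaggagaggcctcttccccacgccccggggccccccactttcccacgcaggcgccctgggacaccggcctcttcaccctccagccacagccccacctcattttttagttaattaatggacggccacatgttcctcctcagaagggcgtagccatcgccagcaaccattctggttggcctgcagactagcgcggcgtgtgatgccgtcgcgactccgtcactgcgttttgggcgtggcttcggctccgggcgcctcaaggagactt
Pdk3: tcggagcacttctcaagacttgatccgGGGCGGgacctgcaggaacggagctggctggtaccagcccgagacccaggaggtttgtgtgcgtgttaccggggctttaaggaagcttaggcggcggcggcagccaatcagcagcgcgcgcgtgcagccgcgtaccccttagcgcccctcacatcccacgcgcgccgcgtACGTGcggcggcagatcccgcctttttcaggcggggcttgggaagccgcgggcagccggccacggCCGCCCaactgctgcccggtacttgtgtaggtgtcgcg
Pdk2: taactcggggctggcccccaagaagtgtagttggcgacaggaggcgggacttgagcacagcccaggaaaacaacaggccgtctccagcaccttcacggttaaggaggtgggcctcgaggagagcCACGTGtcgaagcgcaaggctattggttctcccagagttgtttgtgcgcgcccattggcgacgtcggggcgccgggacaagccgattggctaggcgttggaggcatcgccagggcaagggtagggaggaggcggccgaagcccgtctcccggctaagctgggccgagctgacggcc
The Pdha1 window holds neither motif, the Pdk3 window holds 1 ACGTG and 2 GC boxes, and the Pdk2 window holds a CACGTG that matches ACGTG on both strands. Windows were found for 40 of the 41 genes, without Idh3a. ACGTG was present on at least 1 strand in 14 of these 40 genes (35%, against 21.8% of all 27025 genes with a window), CACGTG in 4 (10%, against 8.09%), namely Ogdh, Pcx, Pdk2 and Pfkm, and GGGCGG in 27 (67.5%, against 38.2%). TATAAA was present in 2, Eno2 and Got2 (5%, against 15.7%). These matches describe letters in a window of 300 bases and were not tested against the fold changes.

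The 12 glycolytic genes after the hexokinase step had the narrowest range of log2 fold changes, from -0.01 to 0.08. Pfkl, the liver-type subunit of phosphofructokinase, which commits hexose phosphate to glycolysis, was at 0.31, 0.41, 0.40 and 0.40 in control arrays 1 to 4 and at 0.22, 0.55, 0.41 and 0.49 in βFbln5KO arrays. The βFbln5KO values lay on both sides of the control values, and the log2 fold change was 0.04 (95% interval -0.14 to 0.21). The other phosphofructokinase subunits, Pfkm of muscle type and Pfkp of platelet type, differed by 0.02 and 0.00 on the log2 scale. Pfkm lies on chromosome 15, 1.45 Mb from the glutamine transporter gene Slc38a1 described below.

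Gapdh, which makes NADH in the first energy-yielding step, was at 5.47, 5.70, 5.40 and 5.59 in control and at 5.64, 5.60, 5.64 and 5.51 in βFbln5KO arrays, a log2 fold change of 0.06 (95% interval -0.12 to 0.24). On this probe, control arrays spanned the whole range of the βFbln5KO arrays. Gapdh had 6 probes, whose log2 fold changes ran from -0.17 to 0.11 with 0 called. On 1 of the dimmer Gapdh probes all βFbln5KO arrays lay above all control arrays, at a log2 fold change of 0.07 (limma adjusted p = 0.498, exact two-sided permutation p = 0.0286, the smallest possible). Pgam1, which moves the phosphate within phosphoglycerate, had the largest fold change of this group. It was at 4.31, 4.42, 4.44 and 4.49 in control and at 4.46, 4.43, 4.54 and 4.57 in βFbln5KO arrays, and its log2 fold change was 0.08 (95% interval -0.05 to 0.22). βFbln5KO arrays 3 and 4 lay above all control arrays, and the other 2 lay among them.

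Pkm, a pyruvate kinase gene, had the smallest signed fold change of the glycolytic genes, -0.01, and the widest interval, -0.48 to 0.47. Its brightest probe was at 3.87, 4.44, 4.47 and 3.91 in control and at 3.79, 4.51, 3.89 and 4.47 in βFbln5KO arrays. The arrays therefore stood at 2 levels, with 2 arrays of each genotype at each level. The dimmer Pkm probe was at 1.36, 1.41, 1.28 and 0.89 in control and at 1.20, 1.46, 1.21 and 1.42 in βFbln5KO arrays, and its log2 fold change was 0.09. In βFbln5KO islets the dimmer probe was also higher on arrays 2 and 4 than on arrays 1 and 3, and in control islets array 4 was low on both probes while array 1 was low on the brighter probe alone. The spot of the brighter probe lies in row 12, within the outer 16 rows of the array. With those rows left out, the gene is read from the dimmer probe. Aldoa, Tpi1, Pgk1, Eno1, Eno2 and Gpi1, enzymes of the steps between hexose phosphate and phosphoenolpyruvate, had log2 fold changes between 0.00 and 0.07.

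**Figure D3:**
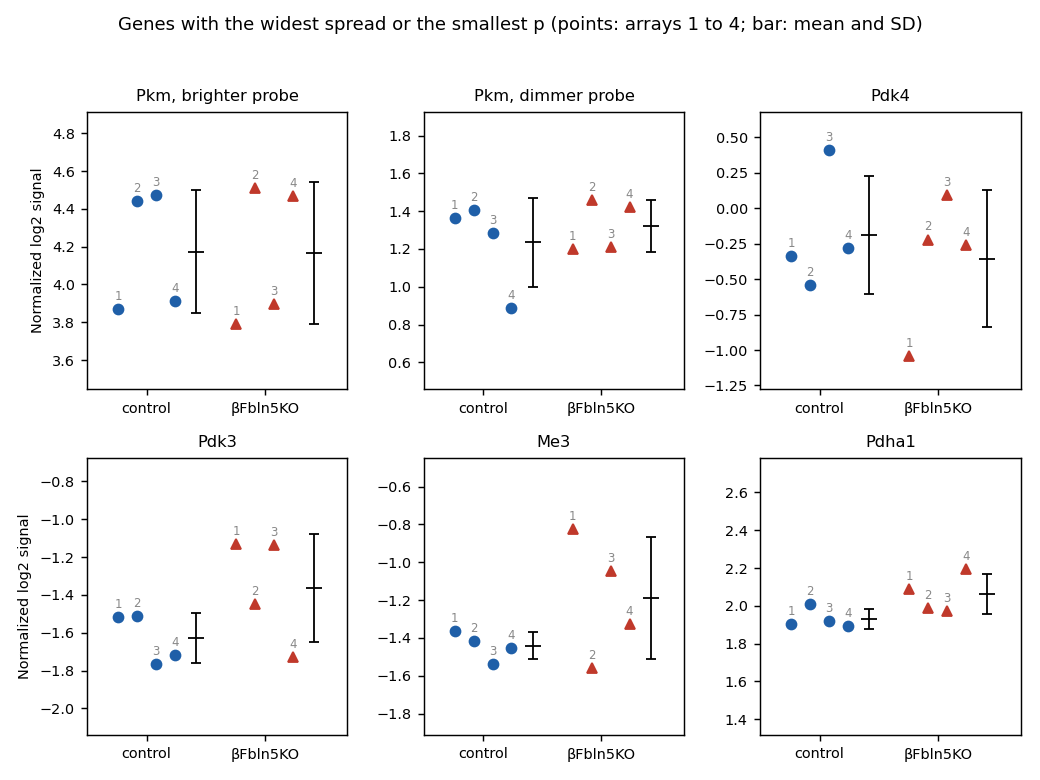
Normalized log2 signal on each array (points numbered by replicate, with blue circles for control, red triangles for βFbln5KO and black bars for mean and SD, n = 4) for both Pkm probes, Pdk4, Pdk3, Me3 and Pdha1. The brighter Pkm probe stands at 2 levels in both genotypes, and Pdk3 and Me3 are high on βFbln5KO arrays 1 and 3.

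The 9 genes of pyruvate entry held both extremes of the whole set. Pcx, pyruvate carboxylase, was at 3.96, 4.14, 4.08 and 4.07 in control and at 4.03, 4.19, 4.02 and 3.99 in βFbln5KO arrays. Its groups overlapped, with a log2 fold change of -0.01 (95% interval -0.15 to 0.14). Pdha1 was at 1.91, 2.01, 1.92 and 1.89 in control and at 2.09, 1.99, 1.97 and 2.20 in βFbln5KO arrays. βFbln5KO arrays 1 and 4 lay above all control arrays, and arrays 2 and 3 lay below the highest control array. The log2 fold change of Pdha1, 0.13 ± 0.06 (SE, 95% interval -0.01 to 0.27), had the smallest p of the set (limma p = 0.0598, adjusted p = 0.228, exact two-sided permutation p = 0.0857, where 4 against 4 arrays allow no p below 0.0286). Without βFbln5KO array 4 it was 0.08. The other subunits of the complex, Pdhb (the E1 beta subunit), Dlat (E2) and Dld (E3), had log2 fold changes of -0.01, 0.03 and 0.03.

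The 4 pyruvate dehydrogenase kinases had log2 fold changes of both signs. Pdk1, the form known for induction by hypoxia, was at 1.10, 1.31, 1.48 and 1.33 in control and at 1.04, 1.50, 1.28 and 1.24 in βFbln5KO arrays (log2 fold change -0.04, 95% interval -0.29 to 0.20). Its groups overlapped, and of its 4 probes 0 were called. The 3 well above background on all arrays had log2 fold changes from -0.04 to 0.14, and the remaining 1 cleared background on 1 of 4 βFbln5KO arrays. Pdk2, a broadly expressed form, was at 0.39, 0.42, 0.38 and 0.53 in control and at 0.54, 0.47, 0.51 and 0.56 in βFbln5KO arrays, a log2 fold change of 0.09 (95% interval -0.03 to 0.21). βFbln5KO arrays 1 and 4 lay above all control arrays, and the other 2 lay below control array 4.

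Pdk3 was at -1.52, -1.51, -1.76 and -1.72 in control and at -1.13, -1.45, -1.14 and -1.73 in βFbln5KO arrays. In βFbln5KO islets, 3 arrays lay above all control arrays, and array 4 lay below 3 of them. The log2 fold change of 0.27 ± 0.15 (SE, 95% interval -0.06 to 0.60, limma adjusted p = 0.318, exact two-sided permutation p = 0.143) was the largest of the set. Without βFbln5KO array 4 it was 0.39 and was called (unadjusted p = 0.0124, limma fit across all probes). Pdk4, the form induced by fasting, was at -0.34, -0.54, 0.41 and -0.28 in control and at -1.04, -0.22, 0.09 and -0.26 in βFbln5KO arrays. Its log2 fold change, -0.17 (95% interval -0.78 to 0.44), was the most negative of the set, and it rested on control array 3, which was high, and βFbln5KO array 1, which was low. It turned to 0.03 without the former and to 0.06 without the latter.

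The 13 TCA cycle genes, with cytosolic Idh1 counted among them, had log2 fold changes from -0.04 to 0.09, of which 11 were positive. Cs, citrate synthase, which joins acetyl-CoA to oxaloacetate, was at 4.04, 4.20, 4.18 and 4.15 in control and at 4.09, 4.13, 4.12 and 4.17 in βFbln5KO arrays. Its log2 fold change was -0.02 (95% interval -0.13 to 0.10). Idh2, the NADP-dependent isocitrate dehydrogenase of mitochondria, was at 5.12, 5.22, 5.38 and 5.35 in control and at 5.14, 5.19, 5.22 and 5.35 in βFbln5KO arrays, and had the most negative log2 fold change of this group, -0.04 (95% interval -0.22 to 0.14). In both genes every βFbln5KO array lay within the range of the control arrays.

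Idh1, the cytosolic counterpart of Idh2, had the largest log2 fold change of this group, 0.09 (95% interval -0.19 to 0.38). It was at -2.01, -2.18, -2.25 and -1.97 in control and at -2.00, -1.78, -2.23 and -2.03 in βFbln5KO arrays, so that only βFbln5KO array 2 lay above the control arrays. Ogdh, the E1 subunit of the 2-oxoglutarate dehydrogenase complex, was at 4.62, 4.62, 4.72 and 4.72 in control and at 4.72, 4.66, 4.76 and 4.55 in βFbln5KO arrays, a log2 fold change of 0.00 (95% interval -0.14 to 0.14). Dlst, the E2 subunit of that complex, had the smallest spread of all 41 genes, with a within-group SD of 0.02 on the log2 scale. The NAD-dependent isocitrate dehydrogenase subunits Idh3a, Idh3b and Idh3g had log2 fold changes of 0.02, 0.07 and 0.07. Those of the succinyl-CoA ligase subunits Suclg1, Suclg2 and Sucla2 were 0.04, 0.09 and 0.02, and those of fumarase (Fh1) and mitochondrial malate dehydrogenase (Mdh2) were 0.05 and 0.00.

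The 7 genes of the cytosolic shuttles and of glutamine use ran from -0.06 to 0.25. Me1, the cytosolic malic enzyme, which returns malate to pyruvate and makes NADPH, was at 1.43, 1.72, 1.48 and 1.28 in control and at 1.42, 1.38, 1.27 and 1.61 in βFbln5KO arrays. Its log2 fold change of -0.06 (95% interval -0.29 to 0.18) was the lowest of this group, and its groups overlapped. Me3, a mitochondrial malic enzyme, was at -1.37, -1.42, -1.54 and -1.45 in control and at -0.82, -1.56, -1.05 and -1.33 in βFbln5KO arrays. In βFbln5KO islets, 3 arrays lay above all control arrays and array 2 lay below all of them, and the log2 fold change of 0.25 ± 0.15 (SE, limma adjusted p = 0.365, exact two-sided permutation p = 0.229) was 0.38 without array 2, where it was called, and 0.13 without array 1, where it was not.

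For glutamine, the steps before the cycle and the enzymes were measured in the same arrays. Slc38a1 and Slc38a2 encode sodium-coupled transporters that carry glutamine into cells. Slc38a1 was at -3.47, -2.56, -3.00 and -3.70 in control and at 2.40, 2.46, 2.51 and 2.40 in βFbln5KO arrays, 49.3-fold higher (limma adjusted p = 7.49e-05). Slc38a2 was at 2.15, 1.92, 2.22 and 1.97 in control and at 1.10, 1.21, 1.00 and 1.02 in βFbln5KO arrays, a log2 fold change of -0.98 (limma adjusted p = 0.00638). In both transporter genes the groups were fully separate. Both genes lie on chromosome 15, Slc38a1 at 96571418 to 96643438 and Slc38a2 at 96687392 to 96699728. Whether their changes are independent of each other was not tested.

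Glud1, glutamate dehydrogenase, was at 3.34, 3.39, 3.48 and 3.43 in control and at 3.30, 3.35, 3.44 and 3.53 in βFbln5KO arrays, a log2 fold change of -0.01 (95% interval -0.14 to 0.13). Got1, the cytosolic aspartate aminotransferase, was at 2.78, 2.62, 2.72 and 2.69 in control and at 2.61, 2.59, 2.68 and 2.88 in βFbln5KO arrays, a log2 fold change of -0.01 (95% interval -0.17 to 0.15). Glul, glutamine synthetase, which makes glutamine from glutamate, was at 3.95, 3.95, 4.23 and 4.08 in control and at 4.05, 4.12, 4.13 and 4.11 in βFbln5KO arrays, a log2 fold change of 0.05 (95% interval -0.11 to 0.20). In all 3 genes the groups overlapped, and Got2, the mitochondrial aminotransferase, and Mdh1, the cytosolic malate dehydrogenase, differed by 0.06 and 0.01 on the log2 scale.

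**Figure D4:**
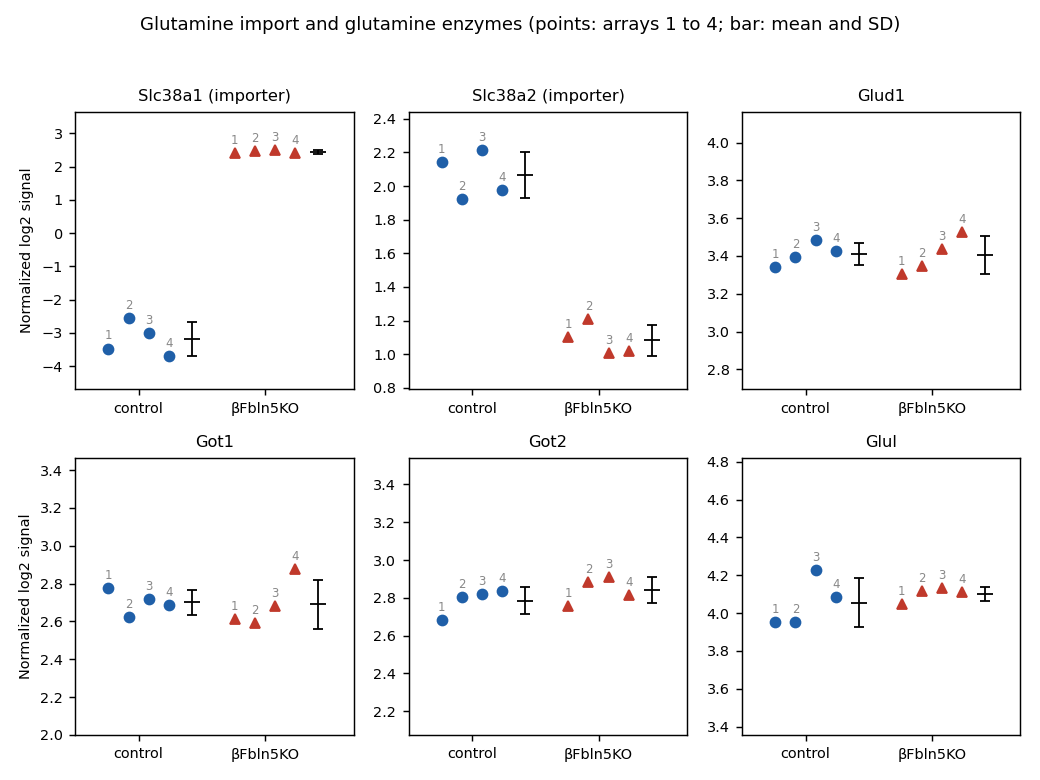
Normalized log2 signal on each array (points numbered by replicate, with blue circles for control, red triangles for βFbln5KO and black bars for mean and SD, n = 4) for 2 glutamine transporters and 4 enzymes of glutamate and glutamine. The transporters separate the genotypes fully, and the enzymes overlap.

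Of 43 other genes of these pathways reported here (hexokinases, bisphosphatases, lactate dehydrogenases, further mitochondrial and glutamine enzymes), 37 were well above background on all 8 arrays. Of the 43, 1 was called higher, 0 were called lower and 0 passed after adjustment, beside the 20.7% higher and 3.97% lower among all probes and the 1.01% and 3.08% among genes well above background. The gene called higher was Fbp2, a fructose bisphosphatase, whose probe stayed dim, with no array well above background, and its size of change is therefore left out. Ldha, lactate dehydrogenase A, was at 1.71, 2.14, 1.96 and 1.54 in control and at 1.50, 1.77, 1.65 and 2.61 in βFbln5KO arrays, where array 4 stood highest, and its log2 fold change was 0.04 (95% interval -0.49 to 0.58).

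The 41 genes also varied little within a genotype. Their within-group SD had a median of 0.08 on the log2 scale, from 0.02 in Dlst to 0.45 in Pdk4, against a median of 0.13 for the 13650 genes, and 31 of 41 lay below that median. The median of the 41 genes on an array, each taken as the difference from its own mean over all arrays, was -0.07, -0.01, 0.00 and 0.00 in control arrays 1 to 4 and -0.02, 0.02, 0.00 and 0.04 in βFbln5KO arrays. Control array 1 was the lowest, and there the 13650 genes also had their lowest median, -0.05. Of the 41 genes, 20 had more than 1 probe, and 0 of the 71 probes were called, 69 of them being well above background throughout. In 10 of these 20 genes the probes had log2 fold changes of both signs, so the sign there depends on the probe.

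**Figure D5:**
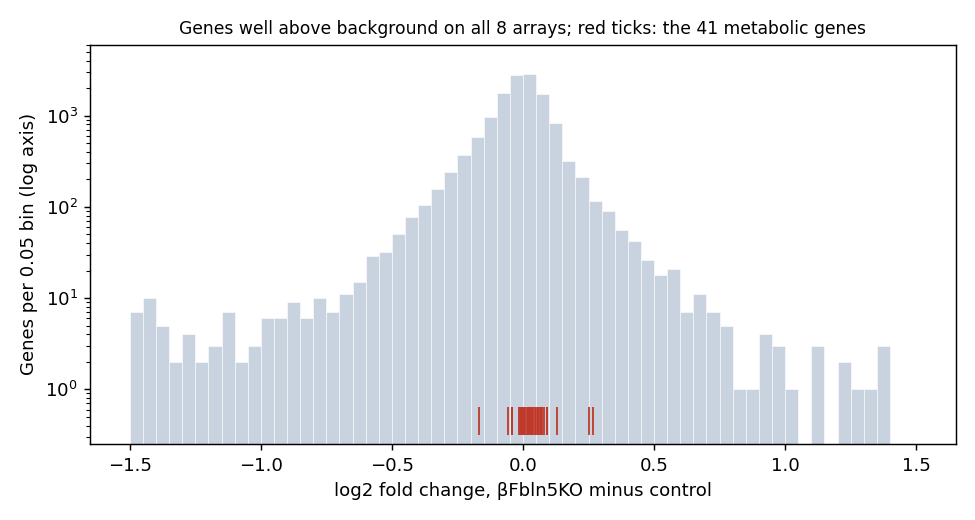
Histogram of log2 fold changes, βFbln5KO minus control, of genes well above background on all 8 arrays (bins of 0.05, logarithmic count axis, 18 genes beyond 1.5 in either direction not drawn), with a red tick for each of the 41 metabolic genes. The ticks lie between -0.17 and 0.27, in the central part of the distribution.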

How the data were processed

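Islet RNA was labelled with Cy3 and hybridised to one-colour Agilent mouse arrays, 1 extraction per array. The authors produced the deposited spot intensities with Agilent Feature Extraction 11.0.1.1 (submitters' processing notes), background-subtracted and spatially detrended. They also deposited a table of ratios, each probe’s processed signal over a single divisor for its array, for 35553 probes and 40 of the 41 genes, which served as an alternative. No column of the authors' own comparisons was used.

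Control spots and spots marked as outliers (0.356% of values) were left out, signals were divided by the 75th percentile of each array and put on the log2 scale (computed here from the deposited intensities), and spots of a probe were averaged. Of 56605 probes, 32994 were named through RefSeq accessions. Genotypes were compared with limma 3.58.1 (R 4.3.3; lmFit, eBayes with trend), after the script had been tested on simulated data, and single genes also with an exact two-sided permutation test over arrays. Figures were drawn with matplotlib 3.10.9. The genes and lists were chosen with earlier results of these data known. Some genes of the fixed pathway list are not reported here. Values on every array are given for fixed pathway nodes and for the genes with the largest and smallest fold change of each group. Same-numbered arrays of the genotypes deviated together with correlations of 0.20, 0.30, -0.22 and -0.02, so numbers were not used as pairs. Alternatives changed background correction, normalization, filter, floor, variance model, probe choice and test, left out the outer 16 spot rows, and left out single arrays.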

Additional observations from a re-analysis of the deposited data

Results flagged for a closer look

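In a search for single arrays far from the other 3 of their genotype (Dixon's criterion), 83 genes gave 166 groups, of which chance flags about 1 in 20 (about 8.3), and 11 stood out. Of the 41 genes, Pfkl was low on control array 1 (0.31, others 0.40 to 0.41), Idh3b high on βFbln5KO array 4 (2.22, others 2.04 to 2.06) and Fh1 high on βFbln5KO array 3 (3.61, others 3.16 to 3.21). Among other genes of the pathways, control array 2 was apart for Fbp1 (0.55), Pklr (-3.20) and Aldh18a1 (2.03), control array 3 for Pdp2 (5.29) and Me2 (-0.83), and control array 4 for Eno3 (2.18). βFbln5KO array 4 was high for Hkdc1 (-4.51, others -6.31 to -6.09, on a probe well above background on 0 of the 4 βFbln5KO arrays) and for Pck1 (-2.16, others -6.56 to -6.40).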

How the results depend on the processing

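Over 20 alternative settings, 818 values of the 41 genes were recomputed. None passed after adjustment in any setting, and the largest difference in either direction was 0.39 on the log2 scale. Calls at an unadjusted limma p under 0.05 appeared 8 times, in 5 genes, all higher in βFbln5KO islets. Except with quantile normalization, calls over all probes, dim ones included, were mostly higher too in these settings (12120 against 1807 lower with the centring below, and 10933 to 13282 against 1697 to 2930 with 1 array left out). Among the 13650 genes well above background on all arrays, as the 41 are, calls in the main fit were mostly lower (1.01% higher and 3.08% lower). Of the 8 calls, 1 came with quantile normalization (Aldoa, 0.18) and 1 with centring on probes well above background on all arrays (Pdha1, 0.15). Leaving out 1 array gave 0 to 2: Pdha1 without control array 2 (0.16) or βFbln5KO arrays 2 (0.15) or 3 (0.16; 0.08 and not called without array 4), Pdk2 without control array 4 (0.12), Me3 without βFbln5KO array 2 and Pdk3 without βFbln5KO array 4. The fold change changed sign in 86 of the 818 values, none of them called, and the count of positive genes was 37 of 41 with quantile normalization or with that centring and 24 of 41 without control array 1. Over all probes, the 11730 called higher became 299 with normexp background correction (3246 lower), 929 with quantile normalization (2424 lower), 227 when probes had to exceed background on 4 or more arrays (1968 lower), 350 with a common floor for dim signals (1676 lower) and 516 in the authors' table (2020 lower). With the replicate number as a block, 0 of the 41 genes were called higher and 0 lower, the median stayed at 0.02, and 10106 probes were called higher and 2105 lower. The cause of these changes was not tested. Dim probes limit the counts over all probes, and 18859 of 56605 were well above background on no array.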

Other observations

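The genes Pck1 and Fbp1 were singled out after their values were seen because of βFbln5KO array 4. Pck1, the cytosolic phosphoenolpyruvate carboxykinase, was at -7.08, -7.06, -6.62 and -4.49 in control and at -6.40, -6.48, -6.56 and -2.16 in βFbln5KO arrays, and was well above background on 1 array of each genotype. Fbp1, the liver-type fructose bisphosphatase, was at 0.48, 0.55, 0.49 and 0.48 in control and at 0.15, 0.35, 0.56 and 1.10 in βFbln5KO arrays. In both genes βFbln5KO array 4 was the highest of all 8 arrays, and it is also the array on which Fbln5 stood among the control values. Neither was called between the genotypes. Over the whole lists, βFbln5KO array 4 was the highest of the 8 arrays for 14 of the 41 genes and for 13 of the 43 other genes of the pathways, and each other array was the highest for 0 to 8 and for 1 to 10 of them.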
